A study of Rattus norvegicus with 16 samples.

Results

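Normal distal colon of 4 Pirc rats and 4 wildtype rats was compared after both genotypes had been given dextran sodium sulfate (DSS), so that the genotype difference was read across 15159 named genes in 8 of the 16 rats of the series. The 8 rats were chosen by their labels alone: treatment with DSS, and either the Pirc/+ genotype (rats 12, 16, 20 and 24) or an Apc wildtype genotype (rats 14, 18, 22 and 26). All were male (ACIxF344)F1 animals, offspring of an ACI and F344 cross, kept on a light and dark cycle with food at all times. Both genotypes drank 4% DSS from day 40 to day 47 and again from day 54 to day 61, and tissue was taken at 97 days of age, 36 days after the last DSS. The Pirc allele is a nonsense point mutation of Apc carried in every cell of the animal and here heterozygous, so that the Apc probe reads transcripts of either allele and does not check the genotype. A further 4 Pirc and 4 wildtype rats of the same cross and age drank no DSS and served as the background of the genotype difference. The question of the comparison is how a mutant Apc allele alters the transcript profile of colon that looked normal after a chemical colitis.

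Apc is a scaffold of the complex that marks beta-catenin for degradation, and loss of its function raises transcription by TCF/LEF factors of genes that keep intestinal crypt cells dividing. DSS injures the colonic epithelium and lets luminal bacteria reach the mucosa, which is followed by influx of leukocytes and by repair. Regenerating and chronically inflamed colon is known to gain Paneth cell products, which normally belong to the small intestine, and the anal end of the colon joins a stratified squamous epithelium.

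Each rat's RNA was hybridised to its own single-colour Agilent array, and a level is given as the log2 processed signal minus the log2 of the array's 75th percentile, so that 0 is a bright gene and values near -8 are at the background of the array. The 75th percentile signal of the 8 DSS arrays lay between 875.36 and 1829, 73.86% to 80.32% of spots were well above background and 0 spots were saturated. Across all 16 arrays, the nearest array by profile belonged to the rat's own group for 14, the exceptions being untreated Pirc rat 23 and DSS wildtype rat 26. Colonic genes were measured on all 8 arrays, with the epithelial surface protein Epcam between 5.09 and 6.01 and the distal colon factor Hoxb13 between 4.45 and 5.84. Markers of other tissues were mixed. Gata4 of the small intestine, Upk2 of the urothelium and Ttr of the liver were well above background on none of the 8 arrays, but Fabp2, Apoa4 and Lct of the small intestine and Upk1a, Upk1b and Upk3a of the urothelium on all 8. The red cell transcript Hbb ranged from 2.79 to 6.87 and did not pass the test between genotypes (log2 difference -0.92, adjusted p = 0.5), while the fat cell transcript Adipoq was higher in Pirc rats by 1.66 (adjusted p = 0.011). Each group was hybridised in a single array column of both slides, so that column and group cannot be told apart, whereas each slide held 2 rats of every group. The tissue was bulk, and a difference in the transcripts of a cell type can stand for another number of those cells or another amount of RNA per cell, which cannot be told apart. The rats were separate animals, and their number limits the precision of every value.

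After DSS, 1660 of 30367 probes (5.47%) were 2-fold or more apart between the genotypes at an adjusted p of 0.05 or less in limma, 940 of them higher in Pirc rats (3.1%) and 720 lower (2.37%), and 5537 probes (18.2%) passed the adjusted p alone, 2877 higher (9.47%) and 2660 lower (8.76%). With 1 probe for each named gene, 964 of 15159 genes were called (6.36%), 544 higher (3.59%) and 420 lower (2.77%), and 2845 genes (18.8%) passed the adjusted p alone, 1332 higher (8.79%) and 1513 lower (9.98%). The median difference of all named genes was -0.10 on the log2 scale, and counts of list members below rest on the adjusted p alone. Among untreated rats the same test called 0 of 30367 probes (0.0%), with 3103 at an unadjusted p under 0.05. Every one of the 1660 called probes had the same sign on both slides, and 1275 had no overlap between the 4 Pirc and the 4 wildtype rats. The probes were called on the difference between these same rats, so that neither count is an independent check. Of the named genes, 1290 had all DSS Pirc rats above all DSS wildtype rats (8.51%) and 1622 all below (10.7%), against 739 (4.87%) and 760 (5.01%) in untreated rats.

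**Figure D1:**
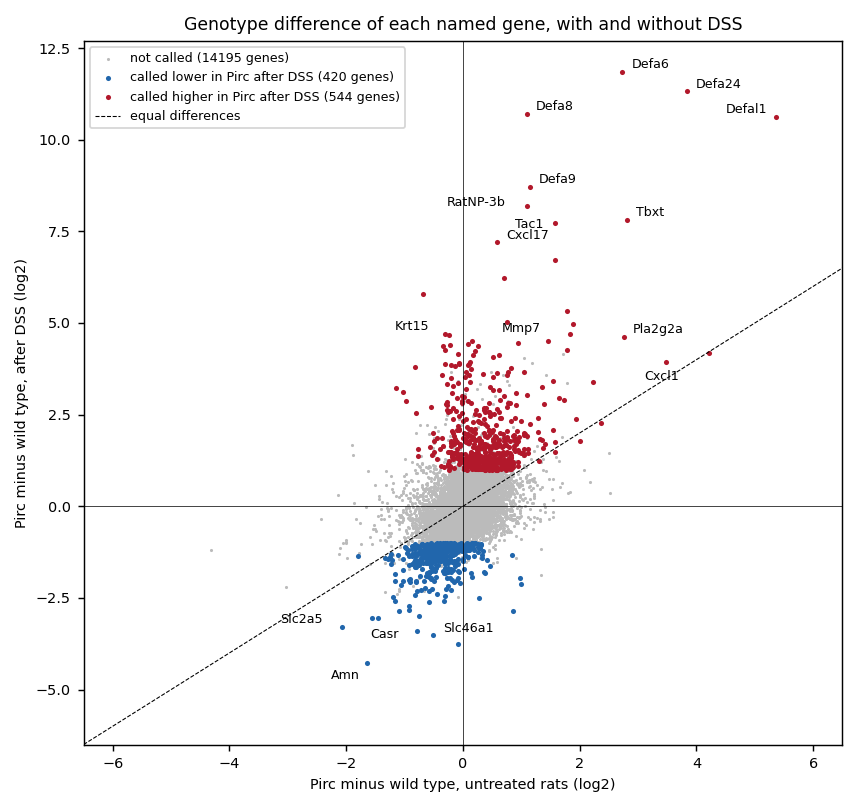
Genotype difference (Pirc minus wildtype, log2) of each named gene, untreated on the horizontal axis and after DSS on the vertical axis, with called genes coloured and selected genes named. The alpha-defensins, Tac1 and Tbxt lie far above the line of equal differences, and Amn and Casr far below 0 on the vertical axis.

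The genotype difference of called probes was mostly of the same sign in untreated animals. Of the 1660 called probes, 1416 (85.3%) had the same sign in untreated rats, against 69.0% of all probes. The difference of the differences itself was called for 13 probes (0.0428%), with 3234 at an unadjusted p under 0.05. Single rats contributed unequally: Pirc rat 20 lay beyond all 4 wildtype rats on 98.4% of called probes and Pirc rat 12 on 87.3%, with the other 6 DSS rats between 91.3% and 95.7% when set against the opposite genotype. These shares are high in part by selection, since the probes were called on the same rats. Without Pirc rat 20 the call was made for 1024 probes, and with only the 8 DSS arrays in the fit for 1018, so that the number of differing genes is less secure than the largest differences.

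Alpha-defensins had the 6 highest genotype differences of all named genes. Alpha-defensins are small antimicrobial peptides of the granules of Paneth cells and, for some members, of neutrophils, Mmp7 is the metalloproteinase that cuts defensin precursors in the mouse, and Pla2g2a is a phospholipase that attacks bacterial membranes. Of 18 measured genes (20 listed) of defensins and Paneth cells 9 were higher in DSS Pirc rats and 1 was lower. The median difference of the list was 2.42 after DSS and 0.29 in untreated rats. The first promoters shown are those of Mmp7 and Defa9, because both genes were much higher and both promoters hold the TCF/LEF motif, and that of Pla2g2a, which holds the NF-kappaB motif. Each is the 250 bases before the start of the gene in RefSeq, build GRCr8, all 3 on the plus strand, with motif letters in capitals.
Mmp7: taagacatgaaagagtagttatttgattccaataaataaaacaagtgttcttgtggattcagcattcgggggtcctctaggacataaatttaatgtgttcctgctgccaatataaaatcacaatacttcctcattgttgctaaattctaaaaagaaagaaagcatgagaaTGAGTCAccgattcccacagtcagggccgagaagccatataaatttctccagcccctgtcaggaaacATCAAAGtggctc
Defa9: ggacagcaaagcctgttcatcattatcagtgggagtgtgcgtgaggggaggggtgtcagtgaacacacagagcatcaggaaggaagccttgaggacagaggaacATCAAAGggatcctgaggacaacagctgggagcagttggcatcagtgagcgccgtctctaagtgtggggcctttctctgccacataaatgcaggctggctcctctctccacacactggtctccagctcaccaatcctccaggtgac
Pla2g2a: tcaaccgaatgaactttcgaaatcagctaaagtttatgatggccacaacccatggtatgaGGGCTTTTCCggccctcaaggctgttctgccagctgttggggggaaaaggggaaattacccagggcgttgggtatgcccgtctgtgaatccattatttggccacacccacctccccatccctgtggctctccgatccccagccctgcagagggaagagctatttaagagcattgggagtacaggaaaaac

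The Mmp7 promoter (chr8:13132793-13133042) held the TCF/LEF motif CTTTGAT on the minus strand, read as ATCAAAG at positions -13 to -7 from the start, and the AP-1 motif as TGAGTCA at -80 to -74. In Defa9 (chr16:77184018-77184267) ATCAAAG stood at -146 to -140, and in Pla2g2a (chr5:156359475-156359724) the NF-kappaB motif stood as GGGCTTTTCC at -190 to -181. The TCF/LEF motif was searched as CTTTGAT on both strands. For AP-1 the letters were TGANTCA, with N for any base. The NF-kappaB motif was searched on both strands with a pair of free bases after its leading GGG and the rest as in Pla2g2a, and no matches overlapped in these promoters. Of 27457 rat promoters of this length, 3.18% held the TCF/LEF motif, 6.36% the AP-1 motif and 1.28% the NF-kappaB motif. For the 12389 promoters of genes measured on the array the shares were 2.79%, 5.52% and 1.41%. Among the 420 promoters of genes called higher the shares were 3.81%, 9.76% and 3.81%, and among the 356 of genes called lower 2.81%, 5.34% and 1.4%. The promoter of the alpha-defensin RatNP-3b held none of the 3 motifs. A match is a description of the letters and no evidence that a factor binds there.

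Defa9 had levels of 3.65, 2.40, 5.65 and 3.84 in Pirc rats 12, 16, 20 and 24 after DSS, and of -4.41, -5.05, -5.60 and -4.26 in wildtype rats 14, 18, 22 and 26. The difference of 8.72 ± 0.54 (SE, log2, n = 4 and 4, limma adjusted p = 1.26e-06) corresponds to a factor of 421. The groups lay far apart, and the lowest Pirc rat was still above the highest wildtype rat. Without DSS, Defa9 lay between -1.72 and -0.73 in Pirc rats and between -2.94 and -1.66 in wildtype rats, so that DSS wildtype rats were below untreated wildtype rats and DSS Pirc rats above untreated Pirc rats. The genotype difference was 7.57 log2 units larger after DSS than without it (adjusted p = 0.000836).

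RatNP-3b, also an alpha-defensin, followed the same pattern with 3.82, 2.35, 5.54 and 3.20 in the DSS Pirc rats against -3.50, -4.03, -5.75 and -4.53 in the DSS wildtype rats. Its difference was 8.18 ± 0.61 (adjusted p = 7.11e-06), and was 7.09 larger than in untreated rats (adjusted p = 0.00377). Defa8 had 3.75, 2.21, 5.58 and 3.53 against -5.80, -7.63, -7.97 and -6.38, and was well above background in only 2 of the 4 wildtype rats, so that its difference of 10.71 ± 0.63 (adjusted p = 8.11e-07) rests partly on background values. Pirc rat 20 had the highest and Pirc rat 16 the lowest level of each of these transcripts. The increase of the genotype difference over untreated rats was 9.62 for Defa8 (adjusted p = 0.000375).

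Defa6 was well above background in all 4 DSS Pirc rats, at 3.92, -0.02, 5.99 and 3.56, and in none of the DSS wildtype rats, at -8.10, -8.57, -8.84 and -8.49. Where a probe was not well above background on any array of a group, the fold is given as a bound, against the lowest signal that was well above background on those arrays or the probe's own signal if higher, and the enhancement of Defa6 was at least 2200-fold (adjusted p = 9.23e-06). All 4 untreated wildtype rats had measurable Defa6, between -6.95 and -4.77, and untreated Pirc rats had -3.87 to -2.05. The difference of the differences passed the test (adjusted p = 0.0178), but it has no measured size because the DSS wildtype rats were at background. Defa24 had 5.78, 0.52, 7.48 and 5.53 against -6.37, -5.64, -7.12 and -6.83, a difference of 11.32 ± 1.14 (adjusted p = 0.000124), while its increase over untreated rats, 7.49, did not pass the test (adjusted p = 0.119). Defal1 was at least 948-fold higher (adjusted p = 0.000163) and the neutrophil-type defensin Np4 at least 8.97-fold higher (adjusted p = 0.000353), both measured on no DSS wildtype array. The alpha-defensin genes form a family of near-identical sequences, no probe sequences were used here, and signal of family members on each other's probes cannot be told apart.

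Outside the defensins, Mmp7 had 1.78, 3.17, 3.43 and 2.43 in DSS Pirc rats against -0.67, -1.41, -2.11 and -3.06 in DSS wildtype rats, a difference of 4.52 ± 0.47 (adjusted p = 0.000168) without overlap. Untreated rats had -3.50 to -2.74 in Pirc and -5.34 to -3.87 in wildtype, below all DSS rats of the same genotype. Pla2g2a had 5.70, 6.77, 6.38 and 5.80 against 2.28, 1.19, 1.08 and 1.56, a difference of 4.63 ± 0.40 (adjusted p = 2.71e-05). It belongs to the genes whose genotype difference was large already without DSS, at 2.76. Habp2, a secreted protease, was measured in 3 of 4 DSS Pirc rats and in no DSS wildtype rat. The only listed member that was lower was Fzd5, the Wnt receptor of Paneth cells, by -1.56 ± 0.24 (adjusted p = 0.0013). With normexp background correction the median of the list was 0.93 rather than 2.42, and over members above background on all 8 DSS arrays it was 0.62.

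Chemokines that attract neutrophils and cytokines of bacterial sensing were enhanced in Pirc rats after DSS, while 0 of the 9 measured genes of a neutrophil list passed the test. Of 9 measured genes of a list of neutrophil-attracting chemokines, their receptors and Csf3 and its receptor, 5 were higher and 0 lower (median 3.75 after DSS, 0.17 untreated). Each of the 5 was a chemokine, and they include the mucosal chemokine Cxcl17. With normexp background correction the median was 1.73. Over the 4 members above background on all 8 DSS arrays it was 2.19. The mean level of the list, centred on all 16 rats, lay between 1.46 and 3.64 in the DSS Pirc rats and between -0.87 and 1.24 in the DSS wildtype rats. Of 9 genes of the neutrophil itself 0 passed in either direction (median 0.34), and their mean was 0.27 to 1.29 in Pirc and -0.31 to 1.01 in wildtype rats. The neutrophil list had 15 genes, and 3 were well above background on all 8 DSS arrays. Transcripts that neutrophils also make were counted in other lists and were higher: S100a8 by 2.82 (adjusted p = 0.00712, with overlap) and S100a9 by 3.25 (adjusted p = 0.00103). The neutrophil-type defensin Np4, given above with the alpha-defensins, was at least 8.97-fold higher (adjusted p = 0.000353). RatNP-3b, a defensin named as a rat neutrophil peptide, was higher by 8.18 (adjusted p = 7.11e-06). The promoters of the chemokine Cxcl1, on the minus strand of GRCr8, and of Tifa, a sensor adaptor of bacterial sugar, on the plus strand, are shown because both hold the NF-kappaB motif, in capitals, within the 250 bases before the start.
Cxcl1: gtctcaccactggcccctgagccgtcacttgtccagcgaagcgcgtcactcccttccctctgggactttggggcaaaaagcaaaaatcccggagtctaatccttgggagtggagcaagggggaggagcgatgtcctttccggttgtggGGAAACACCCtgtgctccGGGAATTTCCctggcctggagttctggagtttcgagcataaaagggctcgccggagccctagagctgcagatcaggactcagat
Tifa: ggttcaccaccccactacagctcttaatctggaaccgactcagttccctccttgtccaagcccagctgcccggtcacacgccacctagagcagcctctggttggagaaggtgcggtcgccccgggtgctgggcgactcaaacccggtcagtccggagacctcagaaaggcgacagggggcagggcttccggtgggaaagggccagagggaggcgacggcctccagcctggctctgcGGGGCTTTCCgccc

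In the Cxcl1 promoter (chr14:17479322-17479571) the motif stood on the minus strand of the gene as GGAAACACCC at -102 to -93, and on its plus strand as GGGAATTTCC at -84 to -75. In Tifa (chr2:218932636-218932885) it stood as GGGGCTTTCC at -14 to -5. The promoter of Cxcl17 held none of the 3 motifs. These matches are read from the letters alone.

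Cxcl1, a ligand of the neutrophil receptor Cxcr2, had -1.60, 1.14, 1.30 and 1.05 in DSS Pirc rats and -2.62, -2.33, -3.41 and -5.49 in DSS wildtype rats, a difference of 3.93 ± 0.70 (adjusted p = 0.00286). The groups did not overlap, with Pirc rat 12 the closest to the wildtype rats, and the difference in untreated rats was of like size, 3.47, without passing the test and with no untreated wildtype rat above background. Cxcl17, a mucosal chemokine, had -2.85, -0.24, 1.93 and -0.36 against -5.13, -8.34, -8.24 and -8.61, a difference of 7.20 ± 0.91 (adjusted p = 0.000432), with 1 of the 4 wildtype rats above background. Cxcl6 was higher by 4.70 ± 0.72 (adjusted p = 0.0013) and Ppbp by 3.75 ± 0.54 (adjusted p = 0.00089). Cxcl2 overlapped, with -0.28, 2.89, 3.41 and 2.60 against 0.34, 1.08, -4.53 and -5.01 (4.19 ± 1.17, adjusted p = 0.0231), and the same difference in untreated rats, 4.21, was as large without passing the test, the untreated wildtype rats being at background. The adjusted p of Cxcl2 after DSS was 0.125 with only the 8 DSS arrays in the fit.

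Of 18 genes of interleukin 1, Tnf and NF-kappaB 8 were higher and 1 lower (median 1.16). Tnf, the central inflammatory cytokine, had -1.85, 0.62, -0.11 and 0.44 against -2.27, -2.81, -3.44 and -4.17, a difference of 2.95 ± 0.52 (adjusted p = 0.0028) without overlap. Tifa had -1.83, -2.44, -1.97 and -1.10 against -4.53, -5.45, -5.42 and -4.64, a difference of 3.17 ± 0.28 (adjusted p = 3.03e-05). In untreated rats Tifa lay between -4.11 and -3.64 in Pirc and between -4.93 and -4.36 in wildtype rats. That difference of 0.61 did not pass the test (adjusted p = 0.472). The increase of the genotype difference of Tifa after DSS was 2.57 (adjusted p = 0.0243). Il1a, an alarm cytokine of injured epithelium, overlapped with -1.46, 1.61, 2.12 and 1.30 against -0.79, -1.79, -3.46 and -3.93 (3.39 ± 0.76, adjusted p = 0.00813). The epithelial cytokine Il18 was lower, by -1.03 ± 0.20 (adjusted p = 0.00468). With only the 8 DSS arrays in the fit 2 of the 8 higher members passed, 3 without Pirc rat 20 or without wildtype rat 26, and 5 without Pirc rat 24 or without moderation of the variances.

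In a list of interleukin 6, 17 and STAT3 genes, which includes the cytokines by which lymphoid cells call for epithelial defence, 8 of 20 genes were higher and 2 lower, although the median of the list, 0.20, was near 0. Il23a, a subunit of interleukin 23, had -4.20, -1.60, -2.19 and -1.97 against -5.79, -5.10, -6.19 and -7.47 (3.65 ± 0.57, adjusted p = 0.00141). Il22 was higher (adjusted p = 0.000494) and above background in 3 of 4 Pirc rats and in no wildtype rat. Its bound of 3.90-fold includes the background value of the other Pirc rat and is approximate. Il17a was above background in all 4 Pirc rats and no wildtype rat, at least 5.29-fold higher (adjusted p = 0.0127). The anti-inflammatory Il10 had -5.54, -3.16, -2.79 and -2.54 against -5.67, -7.11, -7.46 and -7.90, so that Pirc rat 12 stood next to wildtype rat 14. Its difference of 3.53 ± 0.57 (adjusted p = 0.00172) rests mostly on background values, since 1 of the 4 wildtype rats was above background. The feedback inhibitor Socs3 was higher by 1.42 ± 0.22 (adjusted p = 0.00124). Il22ra1, the epithelial receptor chain for interleukin 22, was lower by -1.04 ± 0.16 (adjusted p = 0.0014).

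Epithelial defence genes were partly enhanced. Of 11 genes of epithelial oxidases 5 were higher and 0 lower (median 0.87), led by Duoxa2, the maturation factor of the hydrogen peroxide producing oxidase Duox2, with 0.34, 1.25, 1.2 and 1.23 against -0.97, -2.54, -1.60 and -2.46 (2.90 ± 0.33, adjusted p = 0.00028). Of 15 antimicrobial proteins 5 were higher and 1 lower (median 0.19). S100a9, a subunit of calprotectin made by neutrophils and by stratified epithelium, had 2.70, 4.57, 4.44 and 3.07 against 1.40, 0.75, 0.33 and -0.72 (3.25 ± 0.48, adjusted p = 0.00103). Lcn2, an iron-scavenging protein of inflamed epithelium, was higher by 1.49 ± 0.34 (adjusted p = 0.00899) and was above background in 1 wildtype rat. With only the 8 DSS arrays in the fit 2 members of each of these lists passed as higher, and the antimicrobial count was 3 without Pirc rat 20, Pirc rat 24, wildtype rat 14 or wildtype rat 22. Complement C3 was higher by 2.53 ± 0.45 (adjusted p = 0.0028), and 2 of 16 complement genes passed as higher (12.5%), against 8.79% of all named genes.

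Other immune lists differed in how many genes passed the test. Of all named genes 8.79% passed as higher and 9.98% as lower. The shares were 28.6% and 14.3% of the B and plasma cell genes and 17.6% and 0.0% of the macrophage genes. Of 24 genes of interferon response and MHC class I 2 were higher and 3 lower (median -0.18), among them the guanylate binding protein Gbp2, higher by 1.91 ± 0.40 (adjusted p = 0.00608), and the class I gene RT1-A2, lower by -0.89 ± 0.18 (adjusted p = 0.00544). Of 12 genes of MHC class II presentation 0 were higher and 1 lower, and of 22 genes of T and natural killer cells 1 was higher, Cd3g by 0.83 ± 0.20 (adjusted p = 0.0113). Of 21 other chemokines 0 were higher and 3 lower, with Cxcl16 at -1.44 ± 0.20 (adjusted p = 0.000711). Of 17 macrophage genes 3 were higher, among them the calcium-binding protein Aif1 by 1.1 ± 0.26 (adjusted p = 0.0105), but 0 passed with only the 8 DSS arrays in the fit. The macrophage count was 6 without wildtype rat 14 and 1 without any of Pirc rats 16 and 20 and wildtype rats 18, 22 and 26. Of 14 genes of B and plasma cells 4 were higher and 2 lower, with 2 higher without Pirc rat 12, without wildtype rat 22 or with only the 8 DSS arrays in the fit. Tnfrsf17, the survival receptor of plasma cells, had -3.11, -4.51, -4.51 and -3.71 against -5.56, -6.16, -8.77 and -7.51 (3.04 ± 0.65, adjusted p = 0.00696), with 1 of the 4 wildtype rats above background, whereas Spib and Blnk of B cells were lower by -1.44 ± 0.26 (adjusted p = 0.0028) and -1.32 ± 0.27 (adjusted p = 0.00605).

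**Figure D2:**
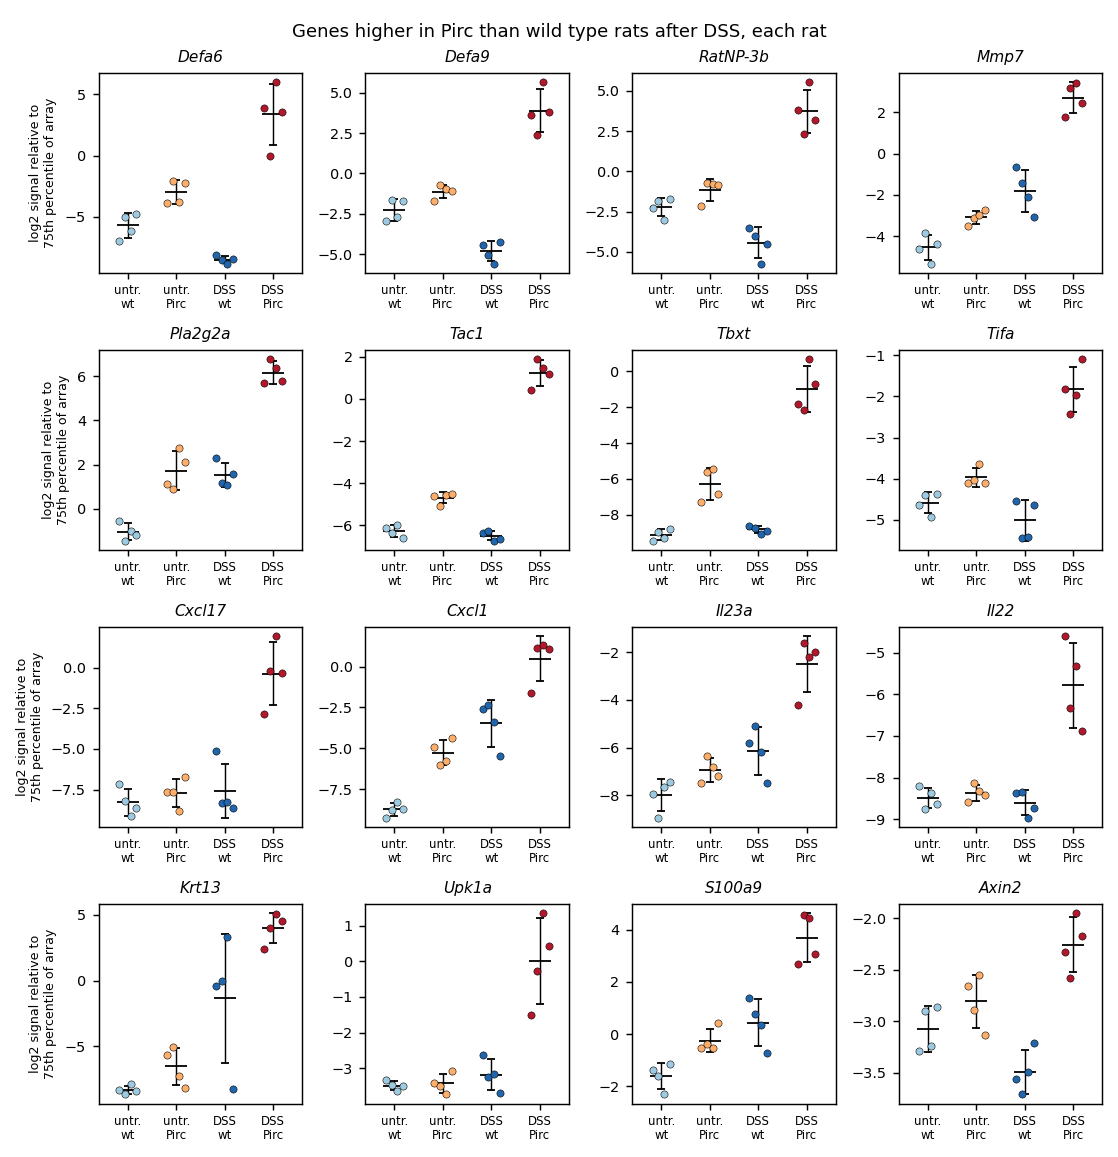
Log2 level relative to the array's 75th percentile of 16 genes in the 4 groups, each point a rat and each bar the mean with SD. Defa6, Tac1 and Tbxt separate the DSS Pirc rats from the other 12 rats, while Krt13 spreads from -8.26 to 3.32 within the DSS wildtype rats.

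Genes of stratified squamous epithelium and urothelium were high in all DSS Pirc rats and varied widely between DSS wildtype rats. Of 23 genes 11 were higher and 1 lower (median 2.96 after DSS, -0.01 untreated). The mean of the list was 1.83, 2.82, 3.77 and 3.39 in Pirc rats 12, 16, 20 and 24 and 0.31, 0.90, 2.93 and -1.77 in wildtype rats 14, 18, 22 and 26. Wildtype rat 22 therefore lay among the Pirc rats and wildtype rat 26 far below the rest. The count of higher members followed these rats: it was 17 without wildtype rat 22, 10 without wildtype rat 26, 7 without wildtype rat 14, 6 without Pirc rat 20, and 3 with only the 8 DSS arrays in the fit.

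Krt13, a keratin of wet stratified epithelia, had 2.41, 3.98, 5.04 and 4.55 against -0.42, 0.00, 3.32 and -8.26 (5.34 ± 1.69, adjusted p = 0.0406), with overlap, and its adjusted p was 0.156 with only the 8 DSS arrays in the fit. Krt15, a basal keratin, did not overlap, with 1.87, 2.93, 4.83 and 4.34 against -0.67, -1.16, 1.48 and -4.46 (4.70 ± 1.09, adjusted p = 0.00967). Basal Krt5 had a difference of 2.75 (adjusted p = 0.0605) and the basal cell factor Trp63 one of -0.30 (adjusted p = 0.173), neither past the test. The umbrella cell gene Upk1a had -1.50, -0.27, 1.36 and 0.44 against -2.63, -3.26, -3.16 and -3.70 (3.19 ± 0.43, adjusted p = 0.000679) and showed no raised value in wildtype rat 22. Krt23 was higher by 3.86 ± 0.68 (adjusted p = 0.00274). The transglutaminase Tgm3 went the other way, with 0.37, 1.57, 1.06 and 1.90 against 4.01, 3.51, 4.26 and 4.40 (-2.82 ± 0.37, adjusted p = 0.000568). Wildtype rat 22, with its squamous mean of 2.93, had a mean of -0.50 for the neutrophil-attracting chemokines and of -1.77 for the Paneth cell genes, below all 4 Pirc rats in both.

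Further large differences were found in single genes. Prss27, a serine protease of stratified epithelia, had -0.55, 2.85, 3.53 and 2.54 against -1.10, -2.73, -1.75 and -4.13 (4.52 ± 0.73, adjusted p = 0.0018). Ggt1, which breaks down extracellular glutathione, had -1.69, 0.70, 1.37 and 0.59 against -2.92, -3.75, -4.04 and -6.14 (4.45 ± 0.67, adjusted p = 0.00112). Armh4 was higher by 3.57 ± 0.53 (adjusted p = 0.00108), Plekhs1 by at least 9.78-fold (adjusted p = 0.00586) and Ggta1, which makes the alpha-gal sugar, by at least 6.51-fold (adjusted p = 0.00356). Pirc rat 12 was the Pirc rat nearest to the wildtype rats for Prss27 and Ggt1.

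A small group of genes passed the test of a larger genotype difference after DSS than without it, beside the defensins and Tifa. Tac1, the precursor of the neuropeptide substance P, had 0.43, 1.89, 1.45 and 1.18 in DSS Pirc rats against -6.35, -6.26, -6.73 and -6.63 in DSS wildtype rats. Untreated Pirc rats had -4.61, -5.09, -4.56 and -4.53 and untreated wildtype rats -6.12, -6.37, -5.98 and -6.59. The DSS Pirc rats thus stood apart from the other 12 rats, with a difference of 7.73 ± 0.26 (adjusted p = 4.86e-10) and an increase over untreated rats of 6.16 ± 0.36 (adjusted p = 2e-06), 3 of 4 rats of each wildtype group being above background. Of 15 genes of enteric neurons and glia 2 were higher (13.3%) and 1 lower (6.67%), with a list median of -0.12. Among all named genes 8.79% passed as higher and 9.98% as lower. The neuronal hydrolase Uchl1 was higher by 1.79 ± 0.41 (adjusted p = 0.00921) and the neuronal receptor Ret lower by -1.26 ± 0.29 (adjusted p = 0.00873).

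Tbxt, the mesoderm factor brachyury, was measured in all DSS Pirc rats, at -1.81, -2.15, 0.67 and -0.70, and in no DSS wildtype rat, at -8.61, -8.72, -9.05 and -8.88, higher by at least 6.75 on the log2 scale (adjusted p = 2.24e-06). Untreated Pirc rats lay between -7.28 and -5.46 and untreated wildtype rats between -9.44 and -8.77, neither wildtype group having a rat above background. The difference of the differences passed the test (adjusted p = 0.0178), but it has no measured size. Slc30a2, a vesicular zinc transporter of Paneth cell granules, turned its direction: it had -4.28, -3.91, -3.20 and -2.96 against -7.01, -7.29, -7.20 and -5.79 after DSS (3.23 ± 0.38, adjusted p = 0.000314), but untreated Pirc rats, at -7.31 to -5.96, lay below untreated wildtype rats, at -5.91 to -5.06. Its difference of the differences was 4.39 (adjusted p = 0.00377), with 1 of the 4 DSS wildtype rats above background. Rpl39l1, a ribosomal protein paralogue, was higher after DSS (adjusted p = 0.000689), above background in 3 DSS Pirc rats and in no rat of the other groups. Its bound of 2.73-fold includes the background value of the other DSS Pirc rat and is approximate. No promoter of Tac1, Tbxt or Slc30a2 held any of the 3 motifs within 250 bases.

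Of 24 genes of absorptive colonocytes 0 were higher and 9 lower in Pirc rats after DSS (median -0.53 after DSS, -0.28 untreated), and the number lower stayed between 8 and 11 under the alternatives. Slc26a3, the apical chloride and bicarbonate exchanger, had 1.98, 2.10, 1.24 and 2.25 against 4.29, 4.06, 4.26 and 3.97 (-2.25 ± 0.32, adjusted p = 0.000932). Sgk1, the kinase that acts for aldosterone on sodium uptake, had 0.48, 1.58, 0.21 and 0.93 against 2.45, 2.31, 2.74 and 2.83 (-1.78 ± 0.23, adjusted p = 0.000494). Both were without overlap. Other members of sodium uptake were lower too: the exchanger Slc9a2 by -1.66 ± 0.21 (adjusted p = 0.000494), the channel subunit Scnn1a by -1.46 ± 0.23 (adjusted p = 0.00162) and the mineralocorticoid receptor Nr3c2 by -1.17 ± 0.15 (adjusted p = 0.000432). The channel subunit Scnn1b (-0.88, adjusted p = 0.332) did not pass. Nor did the distal colon genes Car1 (-0.06, adjusted p = 0.964) and Aqp8 (1.15, adjusted p = 0.259). Of the 24 colonocyte genes 5 had a difference above 0. Guca2a, the hormone guanylin, was lower by -1.42 ± 0.18 (adjusted p = 0.000432). The mean of the list was -0.61, 0.47, -0.96 and -0.27 in Pirc rats 12, 16, 20 and 24 and 0.07 to 0.42 in wildtype rats, so that Pirc rat 16 lay above all 4 wildtype rats in the mean although not in these members. General epithelial genes were lower as well, with Epcam at -0.56 (adjusted p = 0.00505), Krt8 at -0.57 (adjusted p = 0.0133) and Vil1 at -0.62 (adjusted p = 0.008), whereas Krt18 (0.22), Krt19 (-0.20) and Krt20 (-0.45) did not pass, and the part of the amount of epithelium in these decreases was not tested.

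Amn, Slc46a1 and Casr had the lowest differences of the genes measured on all 8 DSS arrays without overlap. Amn, the membrane anchor of the cubilin receptor for vitamin B12, had -4.23, -3.80, -5.17 and -2.42 against 0.33, -0.63, 0.57 and 1.24 (-4.28 ± 0.49, adjusted p = 0.000311). Slc46a1, the proton-coupled folate transporter, had -3.10, -2.79, -3.75 and -1.19 against 0.94, 0.57, 1.18 and 0.55 (-3.52 ± 0.48, adjusted p = 0.000698). Casr, the calcium-sensing receptor, had -3.55, -3.06, -3.49 and -1.56 against 0.38, 0.53, 1.48 and -0.47 (-3.40 ± 0.46, adjusted p = 0.000703). In all 3 genes Pirc rat 24 was the Pirc rat closest to the wildtype rats, and the groups did not overlap.

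The fructose transporter Slc2a5 had -6.66, -5.58, -6.52 and -4.99 against -2.72, -2.70, -1.03 and -4.16 (-3.29 ± 0.66, adjusted p = 0.00517), with a difference of -2.08 already in untreated rats. Dio1, which activates thyroid hormone, had -3.03, -3.45, -3.18 and -2.34 against -0.21, -0.23, 0.24 and 0.22 (-3.0 ± 0.29, adjusted p = 8.07e-05). The zinc transporter Slc39a2 had -5.41, -4.93, -5.72 and -4.65 against -2.44, -1.98, -2.03 and -3.93 (-2.59 ± 0.43, adjusted p = 0.00195). These 3 genes were without overlap, wildtype rat 26 being nearest to the Pirc rats for Slc2a5 and Slc39a2. Intestinal alkaline phosphatase Alpi was lower by -2.46 ± 0.46 (adjusted p = 0.00358) on its brightest probe and by -0.80 on its other probe. The collagen-binding proteoglycan Fmod was lower by -3.06 ± 0.68 (adjusted p = 0.00805), Drc3 by -2.58 ± 0.30 (adjusted p = 0.000311), C13h1orf115 by -2.47 (adjusted p = 0.00162) and the cation channel Trpv3 by -2.38 (adjusted p = 0.000943). The manganese exporter Slc30a10 was above background in all 4 wildtype rats and in no Pirc rat, with a log2 difference of -3.33 or below (adjusted p = 0.000972), and Ffar3, a receptor of short-chain fatty acids, at least 2.95-fold lower (adjusted p = 0.00145). The same held for Adamtsl5 (at least 7.20-fold), Sytl3 (at least 4.87-fold), Spata22 (at least 4.48-fold) and Kcnab1 (at least 3.1-fold).

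Of 22 measured genes (24 listed) of brush border enzymes and nutrient absorption 0 were higher and 7 lower (median -0.39). They included the peptide transporter Slc15a1 at -1.90 ± 0.58 (adjusted p = 0.0341) and the glucose transporter Slc5a1 at -0.91 ± 0.25 (adjusted p = 0.0211), and 3 members passed as lower with only the 8 DSS arrays in the fit. Of 14 goblet cell genes 2 were higher (14.3%) and 1 lower (7.14%), against 8.79% and 9.98% of all named genes. The lower gene was Clca1, a secreted protein of mucus, with 3.38, 3.59, 2.60 and 4.72 against 5.40, 5.68, 5.28 and 5.80 (-1.97 ± 0.40, adjusted p = 0.00544). Of 19 enteroendocrine genes 2 were higher (10.5%) and 2 lower (10.5%), near the shares of all named genes. The somatostatin receptor Sstr2 had -0.57, -0.91, -0.55 and -0.43 against 1.0, 1.14, 1.82 and 1.73 (-2.04, adjusted p = 0.000311).

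**Figure D3:**
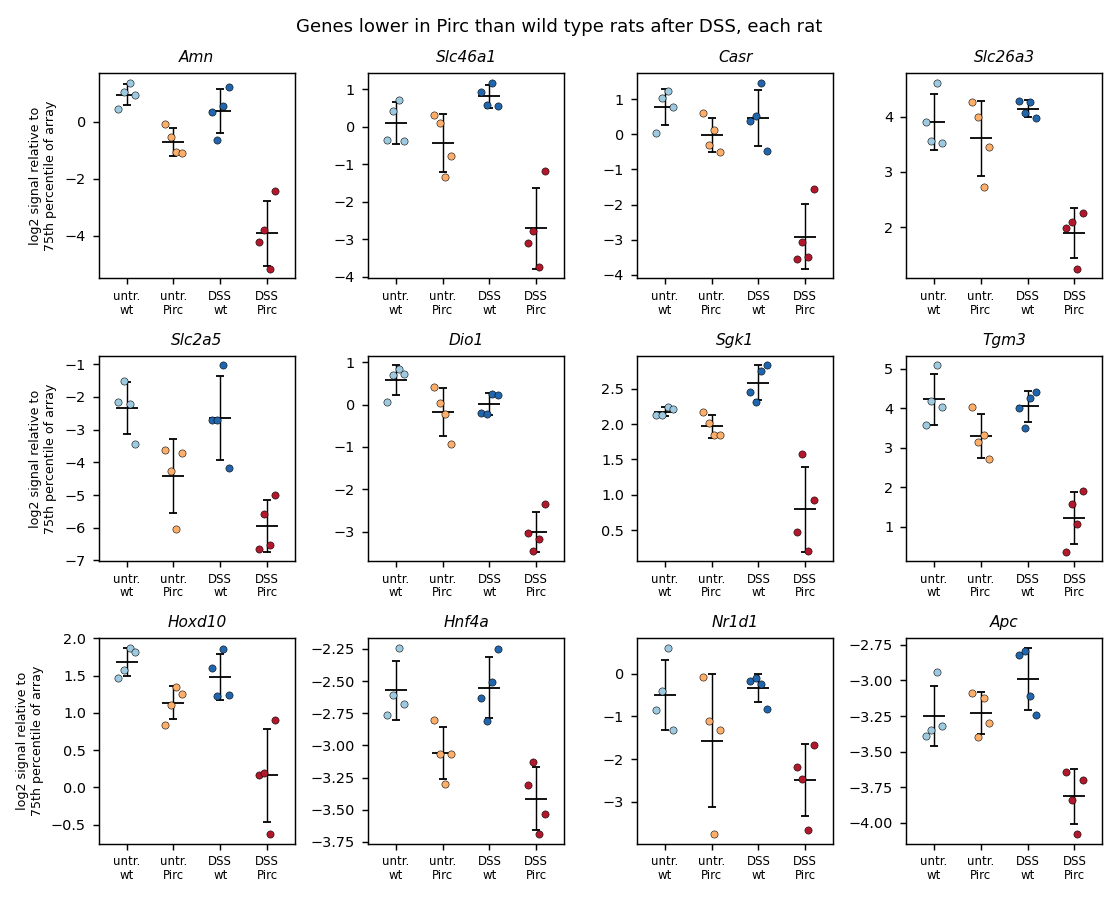
Log2 level relative to the array's 75th percentile of 12 genes in the 4 groups, each point a rat and each bar the mean with SD. Slc26a3, Dio1 and Tgm3 are low in the DSS Pirc rats with no overlap with DSS wildtype rats, and Apc differs between genotypes after DSS (-0.82) with a difference of 0.02 without it.

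Of 17 measured factors (23 listed) of intestinal identity and Hox genes 0 were higher and 8 lower in DSS Pirc rats (median -0.45 after DSS, -0.22 untreated). The list mean was -0.77 to -0.11 in Pirc and 0.01 to 0.24 in wildtype rats. Hoxd10 had 0.17, 0.19, -0.63 and 0.91 against 1.60, 1.22, 1.86 and 1.24 (-1.32 ± 0.26, adjusted p = 0.00464). Hoxd13 had 0.50, 0.60, 0.21 and 0.71 against 1.30, 1.34, 1.83 and 1.75 (-1.05 ± 0.15, adjusted p = 0.000856). Both Hox genes mark the hind end of the gut and did not overlap between genotypes. Hnf4a, the nuclear receptor that maintains enterocyte genes, had -3.31, -3.13, -3.69 and -3.53 against -2.63, -2.81, -2.51 and -2.25 (-0.87 ± 0.17, adjusted p = 0.00459). Hoxb13 and Klf4 were lower by -0.83 and -0.81 (adjusted p = 0.00317 and 0.0118), whereas Cdx2, a master factor of intestinal epithelium, had a difference of 0.40 (adjusted p = 0.258). With only the 8 DSS arrays in the fit 4 of the list passed as lower, and 5 without Pirc rat 12 or Pirc rat 20.

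Targets of Wnt signalling were partly higher. Of 17 genes of intestinal stem cells and Wnt targets 5 were higher and 0 lower (median 0.27), a count of 4 or 5 under every alternative. Axin2, the feedback inhibitor that beta-catenin itself induces, had -2.33, -2.58, -1.95 and -2.17 against -3.56, -3.71, -3.49 and -3.21 (1.24 ± 0.18, adjusted p = 0.000837). Ascl2, a stem cell factor, had 0.50, 0.62, 0.85 and -0.01 against -2.06, -1.63, -1.18 and -0.03 (1.72 ± 0.42, adjusted p = 0.012), Pirc rat 24 and wildtype rat 26 being nearly equal. Myc was higher by 1.32 ± 0.29 (adjusted p = 0.00805) and the adhesion receptor Cd44 by 1.81 ± 0.33 (adjusted p = 0.00328). The probes of the stem cell receptor Lgr5 disagreed, with a difference of 0.02 on the brightest and of 2.24 on the other.

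Apc itself had -3.64, -3.84, -4.08 and -3.70 in DSS Pirc rats and -2.82, -2.79, -3.11 and -3.24 in DSS wildtype rats, a difference of -0.82 ± 0.15 (adjusted p = 0.0033) without overlap. An exact two-sided permutation test of 4 against 4 rats gave p = 0.0286, the smallest that it allows. Untreated rats had -3.40 to -3.09 in Pirc and -3.39 to -2.94 in wildtype, a difference of 0.02, and the change of the difference, -0.85, did not pass the test (adjusted p = 0.199). Of 18 genes of the Apc and beta-catenin complex 5 were lower and 1 higher (median -0.28), among them the adherens junction protein Cdh1, with 4.95, 5.15, 4.93 and 5.22 against 5.78, 5.56, 5.70 and 5.65 (-0.61 ± 0.11, adjusted p = 0.0033). The number lower was 2 without Pirc rat 12, Pirc rat 20 or with only the 8 DSS arrays in the fit, and 3 without wildtype rat 14 or 18.

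Genes of the cell cycle and DNA replication all had differences above 0, and 8 of 22 passed as higher (median 0.80 after DSS, 0.23 untreated). Mcm7, a subunit of the replication helicase, had 2.31, 1.65, 2.58 and 1.41 against 0.81, 0.86, 0.62 and 0.98 (1.17 ± 0.23, adjusted p = 0.00464). Rrm2, a subunit of ribonucleotide reductase, overlapped, with 5.07, 4.41, 5.19 and 3.55 against 3.21, 3.24, 2.80 and 3.63 (1.34 ± 0.35, adjusted p = 0.0169). The list mean was 1.06, 0.32, 1.10 and 0.01 in Pirc rats 12, 16, 20 and 24 and -0.37, -0.19, -0.52 and 0.17 in wildtype rats 14, 18, 22 and 26. Pirc rat 24 lay below wildtype rat 26, and the number of higher members was 17 without Pirc rat 24 and 13 without Pirc rat 16. It was 3 without wildtype rat 14 and 2 without Pirc rat 12, Pirc rat 20 or wildtype rat 22 and with only the 8 DSS arrays in the fit.

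Of 19 genes of the unfolded protein response 9 were higher and 1 lower (median 0.21), including Sdf2l1 at 1.04 ± 0.30 (adjusted p = 0.0269) and the amino acid synthesis gene Asns at 0.92 ± 0.21 (adjusted p = 0.00904), but the count was 2 without Pirc rat 20 or wildtype rat 22, 3 without Pirc rat 12 or wildtype rat 14 or with only the 8 DSS arrays in the fit, and 5 without wildtype rat 18. Plasma cells secrete much protein and share many of these genes, and the plasma cell gene Derl3 was higher by 1.64 ± 0.25 (adjusted p = 0.0013) on its brightest probe and by 0.45 on the other. The part of plasma cells in this list was not tested.

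Single drug-metabolising enzymes differed in either direction. Of 24 conjugation enzymes 3 were higher (12.5%) and 1 lower (4.17%), near or under the 8.79% and 9.98% of all named genes, and the list median was -0.07. The higher were Nqo1, Mgst1 and Gsta1, which detoxify quinones and electrophiles. Nqo1 had -0.28, -0.18, 0.93 and 0.70 against -1.99, -2.0, -1.01 and -1.02 (1.79 ± 0.30, adjusted p = 0.00223). Mgst1 had 0.01, -0.42, 0.55 and 0.23 against -1.88, -1.70, -1.13 and -1.71 (1.70 ± 0.22, adjusted p = 0.000516), and Gsta1 was higher by 1.66 ± 0.24 (adjusted p = 0.000887). The groups of Nqo1 and Mgst1 did not overlap. Of 22 carboxylesterases and cytochromes P450 4 were higher (18.2%) and 4 lower (18.2%). Cyp1b1 was higher (adjusted p = 0.000362) and above background in 3 of 4 Pirc rats and no wildtype rat. Its bound of 3.1-fold includes the background value of the other Pirc rat and is approximate. Cyp2j4 and Cyp3a9 were lower by -1.96 ± 0.29 (adjusted p = 0.00103) and -1.48 ± 0.19 (adjusted p = 0.000432).

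Among 17 genes of prostaglandin synthesis and its receptors 3 were higher and 4 lower, and the synthase and the degrading enzyme of prostaglandin E2 differed in opposite directions. Without wildtype rat 22 or with only the 8 DSS arrays in the fit 1 passed as higher. Ptges, the synthase, had -2.89, -2.94, -2.82 and -3.65 against -3.88, -4.14, -4.51 and -4.81 (1.26 ± 0.26, adjusted p = 0.00574). Hpgd, which inactivates prostaglandins, was lower by -1.35 ± 0.28 (adjusted p = 0.00592) and the prostaglandin transporter Slco2a1 by -1.03 ± 0.22 (adjusted p = 0.00735). Of 20 tight junction and desmosome genes 4 were lower and 1 higher, with occludin, Ocln, at -0.98 ± 0.16 (adjusted p = 0.00187) and claudin 1, Cldn1, at 2.45 ± 0.70 (adjusted p = 0.0264), measured in 2 of the 4 wildtype rats. The number of lower junction genes was 1 or 2 without any 1 of 9 rats or with only the 8 DSS arrays in the fit. Of 17 retinoid genes 3 were higher (17.6%) and 2 lower (11.8%), with the vitamin A uptake receptor Stra6 at 1.40 ± 0.31 (adjusted p = 0.00775). Of 18 phosphodiesterases 2 were higher (11.1%) and 3 lower (16.7%), with Pde5a, which degrades cyclic GMP, at -0.98 ± 0.19 (adjusted p = 0.00396). All these counts stand beside 8.79% and 9.98% of all named genes that passed as higher and lower.

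Clock genes had a low median of -0.81 after DSS against 0.01 without it, with 3 of 15 genes lower and 0 higher. Nr1d1, a repressor of the clock loop, had -2.18, -2.46, -3.67 and -1.68 against -0.16, -0.11, -0.25 and -0.83 (-2.16 ± 0.64, adjusted p = 0.0315). The clock output factor Dbp had 0.46, 0.87, 0.00 and 3.12 against 3.63, 3.50, 4.07 and 1.07 (-1.96, adjusted p = 0.111) and did not pass. Pirc rat 24 and wildtype rat 26 exchanged places in Dbp, and the list mean was 0.04 in Pirc rat 24 and -0.30 in wildtype rat 26 against -0.75 to -0.46 and 0.38 to 0.51 in the other rats of their groups. The count of lower clock genes was 6 without wildtype rat 26 and 5 without Pirc rat 24, but 1 without any of Pirc rats 12 and 20 and wildtype rats 14, 18 and 22, and 1 without moderation of the variances.

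**Figure D4:**
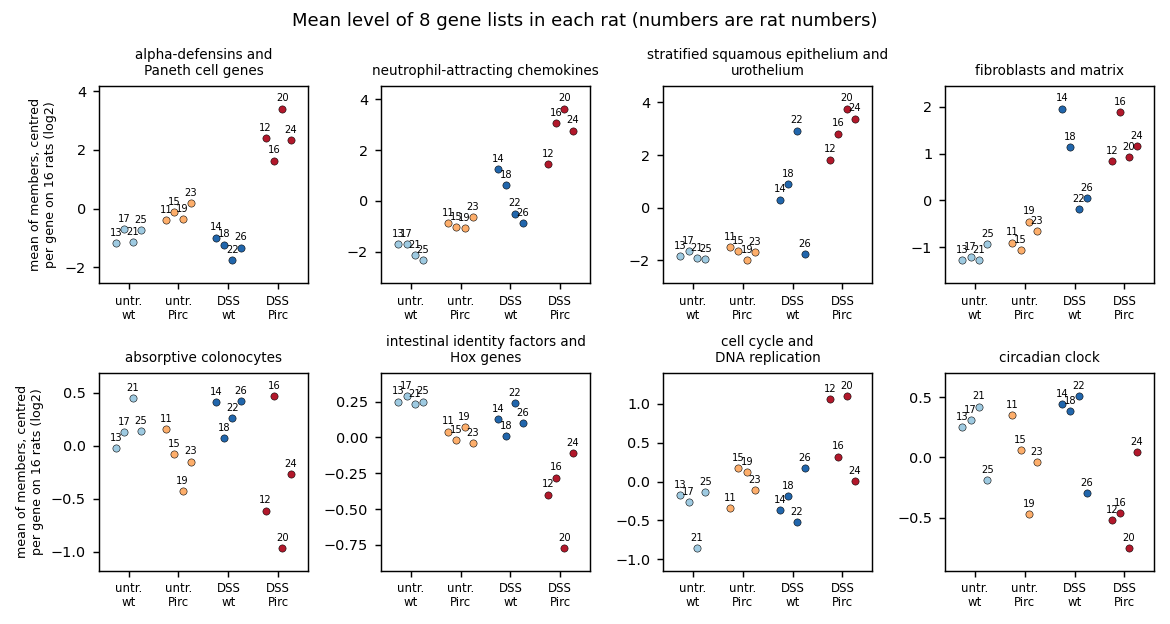
Mean level of 8 gene lists in each of the 16 rats, each gene centred on its mean over all rats, points coloured by group. The 4 DSS Pirc rats (1.63 to 3.41) lie above the other 12 rats for defensin and Paneth cell genes, and the squamous list of DSS wildtype rats spreads from -1.77 to 2.93.

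Few genes of stromal cells passed the test. Of 20 fibroblast and matrix genes and of 15 endothelial genes 0 passed in either direction (medians 0.48 and 0.37), and the mean of the fibroblast list ranged from 0.83 to 1.89 in Pirc and from -0.19 to 1.96 in wildtype rats. Of 14 metalloproteinase genes 3 were higher and 1 lower, the macrophage elastase Mmp12 at 1.79 ± 0.51 (adjusted p = 0.0248) with a like difference of 2.0 in untreated rats, and the number higher was 0 with only the 8 DSS arrays in the fit, 5 without Pirc rat 24 and 1 without Pirc rat 12 or 20 or wildtype rat 22 or 26. Of 14 smooth muscle genes 1 was lower, the myosin light chain kinase Mylk, with 0.32, 0.76, 0.05 and 0.98 against 2.33, 2.08, 2.34 and 1.72 (-1.59 ± 0.23, adjusted p = 0.000837). The mean of the muscle list was 1.87 in wildtype rat 26 and at most 0.76 in any other DSS rat.

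Energy metabolism held few genes that passed. Of 24 respiratory chain genes 1 was higher and 0 lower (median 0.02), of 23 genes of fatty acid oxidation 0 higher and 2 lower, with the mitochondrial coactivator Ppargc1a at -1.53 ± 0.29 (adjusted p = 0.00381), and of 17 glycolysis genes 1 higher and 1 lower, the hexokinases Hk2 at 1.04 ± 0.27 (adjusted p = 0.0166) and Hk1 at -0.97 ± 0.16 (adjusted p = 0.00177). Of 19 genes of cholesterol synthesis 0 were higher and 2 lower. Of 13 genes of EGF receptors and ligands 0 were higher and 2 lower, Erbb2 at -0.79 and Erbb3 at -0.66 (adjusted p = 0.0221 and 0.0486). Of 16 immediate early genes 1 was lower, Jund at -1.02 ± 0.19 (adjusted p = 0.00356). These counts are to be read against the 8.79% and 9.98% of all named genes that passed as higher and lower.

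**Figure D5:**
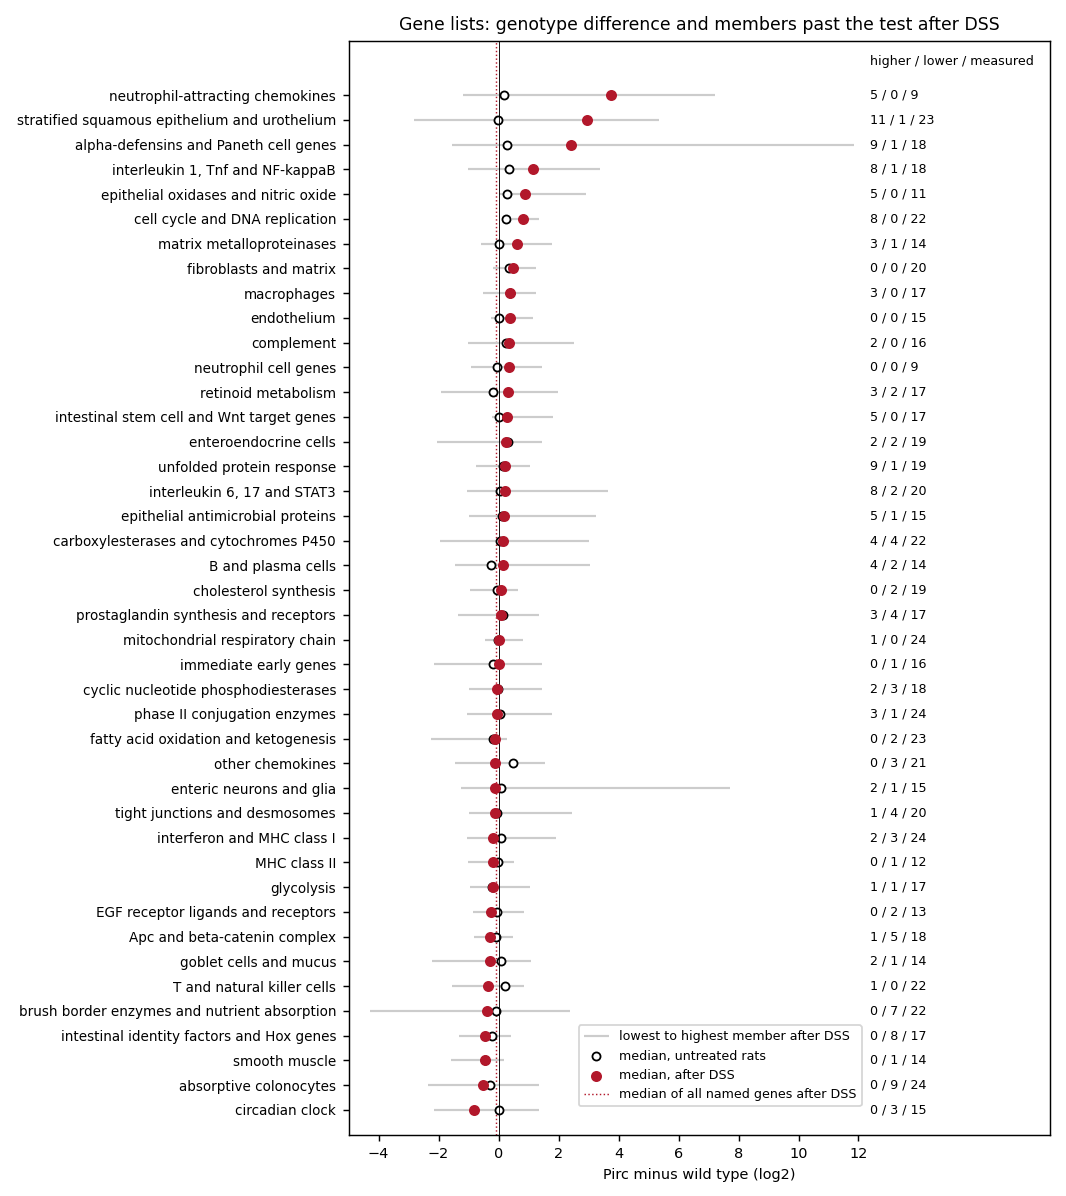
Median genotype difference (log2, Pirc minus wildtype) of the 42 gene lists after DSS (filled) and in untreated rats (open), with a line for the range of the members and the number higher, lower and measured beside each. Neutrophil-attracting chemokines (3.75), squamous and urothelial genes (2.96) and defensin and Paneth cell genes (2.42) had the highest medians, and the clock genes (-0.81) the lowest. With normexp background correction the medians of the first 3 lists were 1.73, 2.55 and 0.93.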

How the data were processed

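RNA of normal distal colon of 16 rats was hybridised to 1-colour Agilent arrays with 62976 spots, and the authors deposited the output of Agilent Feature Extraction 10.7.3.1 per the file headers, in which gProcessedSignal is a background-subtracted, linear intensity that has not been scaled between arrays. Here the 4259 control spots were dropped, spots flagged as outliers were left out unless all spots of a probe were flagged (25 probe values), log2 was taken, the log2 of each array's 75th percentile over its 58717 gene spots was subtracted, and spots of a probe were averaged to 30367 probes. The filter on low values was none, and probes below background were kept.

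Probes were named through RefSeq accessions or symbols of the GRCr8 gene table, by which 18006 probes matched 15159 symbols and 12361 did not. A gene is represented by its brightest probe over all 16 arrays. limma 3.58.1 in R 4.3.3 was fitted with lmFit and eBayes to all 4 groups, p-values were adjusted by the Benjamini-Hochberg method over all 30367 probes, and the call was an adjusted p of 0.05 or less with a 2-fold or greater change. Tables and exact permutation tests were made with Python 3.11.15, pandas 2.3.3 and scipy 1.17.1, and the limma fit was tested on simulated data.

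Gene lists (42) and the rule for named genes were chosen with earlier results of these data known. The rule took up to 12 genes of largest difference in each direction that were called, measured on all 8 DSS arrays and without overlap, up to 6 of largest bound in each direction, up to 10 of the difference of differences, up to 4 list members past the test in each direction, and Apc. Members named beyond it were chosen after their values were seen. Alternatives were quantile normalization, scaling to the median of measured probes, normexp (offset 50) on the median spot signal, a common floor, filters on dim probes, slide and array row as blocks, outlier spots retained, a fit of the 8 DSS arrays alone, other moderation, probes averaged by gene, other thresholds, and leaving out each of the 16 rats.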

Additional observations from a re-analysis of the deposited data

Results flagged for a closer look

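In 5 of 84 checks, 1 of the 4 rats of a DSS group lay far from its nearest neighbour by Dixon's criterion, where chance gives about 1 in 20 or 4.2 of 84. Pirc rat 12 was low for the chemokine Cxcl1 (-1.60), the keratin Krt23 (-0.74) and Adamtsl5 (-8.40). Pirc rat 24 was low for the manganese exporter Slc30a10 (-9.17), and Adamtsl5 and Slc30a10 were below background in all 4 Pirc rats, so that their order there has no meaning. Wildtype rat 26 was high for Armh4 (-4.12).

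In 9 named genes the genotype difference after DSS and that in untreated rats were set apart by limma's test of the difference itself. The fitted increases on the log2 scale were 9.62 for Defa8, 9.13 for Defa6, 7.57 for Defa9 and 7.09 for RatNP-3b among the alpha-defensins. They were 6.16 for the substance P precursor Tac1, 5.0 for Tbxt, 4.39 for the zinc transporter Slc30a2, 3.34 for Rpl39l1 and 2.57 for Tifa. The sizes for Defa6, Tbxt and Rpl39l1 are fitted to background signals in at least 1 wildtype group and are not measurements of size. Those of Defa8, Slc30a2 and Tac1 rest partly on background signals in wildtype rats.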

How the results depend on the processing

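The 1660 probes called after DSS became 814 with normexp, 1018 with only the compared groups in the fit, 966 with probes of a gene averaged, 1035 at an adjusted p of 0.01, 4121 at a factor of 1.5 and 327 at a factor of 4. Leaving out each rat gave 1024 (Pirc rat 20) to 2139 (Pirc rat 16). The 5537 probes past the adjusted p alone became 2127 with only the compared groups, 2982 with probes averaged, 2102 at an adjusted p of 0.01, and 3131 (without Pirc rat 20) to 6805 (without Pirc rat 16) with a rat left out, 3605 without Pirc rat 12. The 0 calls in untreated rats became 2 with normexp, 3 with only the compared groups, and 0 to 4 with a rat left out (4 without DSS Pirc rat 16, 1 without untreated wildtype rat 13). The 13 calls of the difference of differences became 37 with normexp, 37 with a common floor, 8 without moderation, 35 with trend and robust moderation, 8 at an adjusted p of 0.01, and 8 (untreated Pirc rat 11 or wildtype rat 25) to 63 (DSS Pirc rat 12) with a rat left out. Leaving out DSS rats 16, 22, 24 or 26 gave 27, 27, 25 and 35. The cause was not tested. The 176 genes taken by the naming rule all passed the adjusted p of 0.05, without regard to the fold. Genes named in the text beyond that rule were not among the 176, and the following counts do not cover them. Of the 176 genes, 108 stayed past the adjusted p under every alternative that gave a value for the gene at that threshold. Another 63 did not pass with only the compared groups in the fit and 43 without Pirc rat 20, these sets sharing genes, and 0 changed direction. Other thresholds were not applied to single genes, and filters gave no value for genes that they removed. The medians of the lists of interleukins 6 and 17, other chemokines, B and plasma cells, fatty acid oxidation, carboxylesterases and cytochromes P450, conjugation enzymes, enteric neurons, cholesterol synthesis, respiratory chain, immediate early genes, phosphodiesterases and prostaglandins changed sign under at least 1 alternative. No paired analysis was possible because each rat has a number of its own and the groups share none. Genes near background have only bounds.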
